A study of Schizosaccharomyces pombe with 5 samples.

Results

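The abundant long noncoding RNAs of fission yeast (Schizosaccharomyces pombe) were followed through an immunoprecipitation of Slr1p, the homolog of the human RNA-binding protein LARP1. They were taken as every gene whose identifier begins with SPNCRNA and whose raw count was at least 20 CPM (counts scaled to a common library total) in both total RNA input libraries. Of the 1567 such identifiers among 6727 counted genes, 83 passed this floor. The rule left out 6 noncoding RNAs by name and any annotated snoRNA or snRNA, which removed SPNCRNA.906 and SPNCRNA.1483, and 81 RNAs remained. Because input levels chose these RNAs, their abundance in input and every comparison with input are given as a description. The floor itself did not use the comparison of Slr1p with IgG. SPNCRNA.906, left out by name, had 23.5 and 31.6 CPM in the Slr1p libraries. It had 2317 CPM in the IgG library, against 37.6 and 39.1 CPM in the input libraries. Counts, shares and ranges of the set below are without this RNA.

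RNA bound to Slr1p was measured by RNA immunoprecipitation and sequencing. There were 2 libraries of RNA precipitated with an antibody against Slr1p, 1 library precipitated with rabbit IgG as the non-immune control, and 2 libraries of total RNA input extracted with hot phenol. All 5 came from wild-type cells of strain yAS99 grown in YES, a rich medium, at 32 °C and cross-linked with formaldehyde, so no library lacked Slr1p and no stress was applied. The sample titles name the Slr1p and input libraries as biological replicates without saying whether they came from separate cultures, so the p-values below measure the spread between these libraries only. In these bulk libraries, fewer cells carrying an RNA and less of that RNA per cell cannot be told apart.

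Long noncoding RNAs of fission yeast are transcripts of RNA polymerase II without a known protein product, and many run antisense to protein-coding genes. A large number are kept low by the nuclear exosome, an exonuclease complex, often after RNA-binding proteins such as Mmi1 have recognised them. LARP1 proteins are known in human cells for binding the 5′ cap and the pyrimidine tract that begins the mRNAs of ribosomal proteins, the TOP motif, and for controlling the stability and translation of those mRNAs.

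The annotated 5′ ends were read first, since the TOP motif lies there. A run of at least 5 pyrimidines beginning at base 1, 2 or 3 was present in 3 of the 81 RNAs, or 3.70%. It was present in 132 of 1347 other noncoding RNAs (9.80%) and in 471 of 5071 protein-coding genes (9.29%). The first 40 bases of these 3 RNAs are shown 5′ to 3′, on the strand of the transcript, with the pyrimidine run in capitals. They come from the RefSeq annotation of assembly ASM294v3. The chromosomes and strands are I minus for prl3, II plus for SPNCRNA.1599 and I plus for SPNCRNA.763.
prl3: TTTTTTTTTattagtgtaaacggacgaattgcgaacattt
SPNCRNA.1599: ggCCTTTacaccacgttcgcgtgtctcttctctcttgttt
SPNCRNA.763: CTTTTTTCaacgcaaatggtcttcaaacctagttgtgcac
For comparison, the RNA with the highest count, both RNAs with the largest rises over IgG and both with the largest falls are shown in the same way. None of these 5 had such a run, so no base is capitalised. The chromosomes and strands are I minus for prl53, II minus for SPNCRNA.1487 and SPNCRNA.570, II plus for SPNCRNA.135 and I plus for SPNCRNA.742.
prl53: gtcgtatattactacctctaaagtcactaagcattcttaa
SPNCRNA.1487: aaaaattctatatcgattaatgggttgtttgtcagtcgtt
SPNCRNA.570: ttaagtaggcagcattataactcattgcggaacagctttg
SPNCRNA.135: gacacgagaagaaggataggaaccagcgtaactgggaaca
SPNCRNA.742: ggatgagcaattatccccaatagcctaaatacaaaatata
These are annotated ends, and transcription start sites were not measured here. The hexamer TNAAAC, known in fission yeast as the sequence that Mmi1 binds, was searched on the transcript strand in the first 300 bases. It was found in 26 of the 81 RNAs (32.1%), in 627 of 1269 other noncoding RNAs (49.4%) and in 2150 of 5022 protein-coding genes (42.8%).

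The Slr1p libraries held 63392249 and 65859940 gene counts, the IgG library 12882920, and the input libraries 64236988 and 62802923. The median count of the 81 RNAs was 2178 and 2046 in the Slr1p libraries, 429 in the IgG library, and 2167 and 2249 in the input libraries. None fell below 144 counts in a Slr1p library or 76 counts in the IgG library. The IgG library stood apart from the others in part of its RNA. Messages encoded in mitochondria took 4.73% of its counts, against at most 0.00154% in any other library, and the 6 noncoding RNAs left out by name took 0.868% of it, against at most 0.00557% elsewhere. The part of this difference in the results was not tested.

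The 81 RNAs together, without those left out by name, made up a similar share of every library. They took 0.940% and 0.935% of the counts in the Slr1p libraries, 0.896% in the IgG library, and 0.897% and 1.02% in the input libraries. The 95% Wilson intervals, which cover counting error only, were 0.937% to 0.942% and 0.933% to 0.937% for Slr1p and 0.890% to 0.901% for IgG. A single RNA carried most of these counts: prl53 held 59.0% and 59.4% of them in the Slr1p libraries, 55.5% in the IgG library, and 56.5% and 60.7% in the input libraries. The other 80 RNAs took 0.385% and 0.380% of the Slr1p libraries, 0.398% of the IgG library, and 0.391% and 0.402% of the input libraries. Both Slr1p shares of these 80 lay below the other 3 shares.

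Levels below are CPM scaled by TMM, edgeR's correction for library composition. By this measure the median RNA of the set stood at 36.0 CPM in input, 64 of the 81 were under 50 CPM and 8 were at or above 100. Per kilobase of annotated length, the median was 19.4 CPM, against 1.69 for other noncoding RNAs and 21.9 for protein-coding genes, and 33 of the 81 were above that coding median. Just inside the floor were SPNCRNA.934 (20.3 and 23.0 CPM of the library total in the input libraries), SPNCRNA.761 (24.0 and 20.4) and SPNCRNA.1044 (20.5 and 21.4). Just outside it were SPNCRNA.1417 (23.5 and 19.9), SPNCRNA.636 (19.7 and 24.9) and SPNCRNA.935 (19.6 and 30.8). Membership at this edge therefore rested on differences smaller than those between the input replicates.

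Annotation describes all 81 as single-exon transcripts, 430 to 5317 bases long with a median of 1850, longer than the median of 1010 for other noncoding RNAs and of 1681 for protein-coding genes. The floor was not scaled by length, so a longer RNA could pass it at a lower level per kilobase. The median GC content of the 81 was 35.9%, against 34.9% in other noncoding RNAs and 37.2% in protein-coding genes. Chromosome I carried 34 of them, chromosome II 34 and chromosome III 13. In 47 the only overlap with a protein-coding gene was on the opposite strand, in 11 it was on both strands and in 11 on the same strand only, while 12 overlapped none. Of the 58 with an antisense overlap, 44 were covered by it over at least 50% of their length and 4 over all of it. A further 5 lay wholly inside protein-coding annotation on their own strand: SPNCRNA.112 in rhs1, SPNCRNA.133 in fhn1, SPNCRNA.586 in ptc2, SPNCRNA.135 in SPBC365.16, and prl32 in SPCC417.15 together with SPCC417.16.

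Reads of overlapping genes needed care, because the sources used here do not give the strand setting or the handling of shared reads. The library kit was directional. Of 560 counted genes whose whole length was covered only by genes of the opposite strand, 427 had over 100 input counts and 5 had 0. Of 11 covered whole by genes of the same strand, 6 had 0. Same-strand neighbours also showed zeros: SPAC27E2.11c, which overlaps prl53, SPAC806.11, which overlaps prl3, and tco1, which overlaps nc-tco1, were listed at 0 in every library. A level of an RNA with same-strand overlap can therefore hold reads of the coding gene or lack reads given to it, and the deposited counts do not separate these.

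Most antisense RNAs of the set were higher per kilobase in input than the mRNA opposite. This held for 44 of the 56 whose largest overlap was with a counted coding gene on the other strand, and in 17 of the 56 that gene was under 1 CPM per kilobase. The rule set a floor in input for these RNAs and none for the mRNAs opposite. It therefore favours this order, which is given as a description only. SPNCRNA.1602 stood at 49.1 CPM per kilobase, against 0.71 for hop1, which encodes a protein of the meiotic chromosome axis. SPNCRNA.904 stood at 22.2, against 0.37 for dmc1, the meiotic recombinase. SPNCRNA.1644 stood at 29.1, against 0.11 for spo4, a kinase subunit needed for the second meiotic division. At these 3 loci the antisense RNA was the higher of the pair.
The same order held at 4 further genes named for meiosis. SPNCRNA.815 had 25.0 CPM per kilobase in input, against 0.28 for mug68, and SPNCRNA.1351 had 86.9, against 2.82 for mug2. SPNCRNA.1044 had 6.25, against 0.22 for mcp3, and SPNCRNA.1476 had 11.6, against 2.57 for mcp4. Opposite bgs2, which encodes a glucan synthase of the spore wall, SPNCRNA.880 had 28.5, against 5.12. These loci were picked by name after their values were seen. At other loci the order was reversed by a wide margin: SPNCRNA.1594 had 24.4 CPM per kilobase, against 6263 for rpl1801, a ribosomal protein gene, and SPNCRNA.1358 had 15.3, against 2445 for eca39, a branched-chain amino acid aminotransferase.

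**Figure D1:**
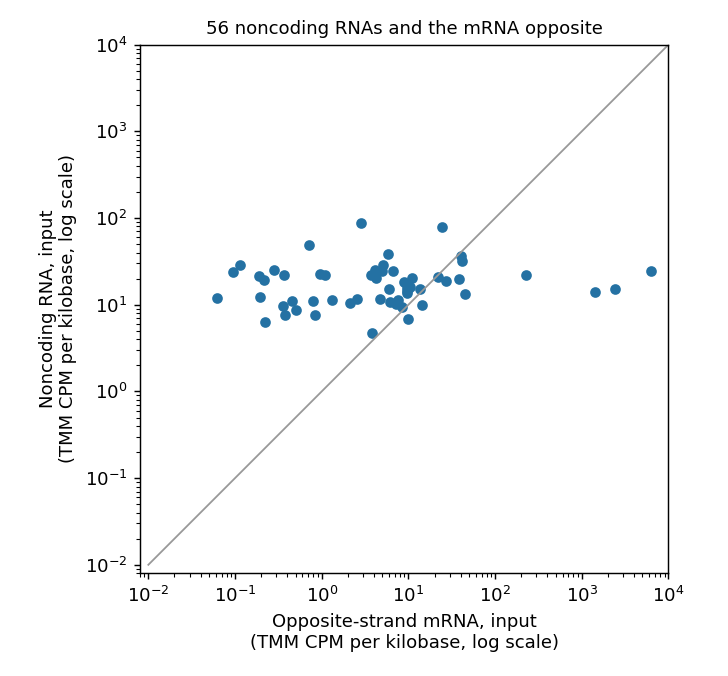
Each point is 1 of the 56 abundant long noncoding RNAs whose largest overlap was with a counted protein-coding gene on the other strand. The y axis gives its mean level in the 2 input libraries and the x axis that of the opposite mRNA, both in TMM-scaled CPM per kilobase on log scales. Above the line of equal levels lie 44 points. The noncoding RNAs were chosen by a floor in input and the mRNAs were not.

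The central comparison was Slr1p with IgG, which asks which RNAs the antibody against Slr1p brought down beyond a non-immune one. Among the 81 RNAs, 33 were higher and 18 were lower with Slr1p, and 30 were not called (edgeR quasi-likelihood test, adjusted p under 0.05 over all genes). Over all 6376 genes tested, 34.0 percent were higher and 32.3 percent were lower. The set held 40.7% higher and 22.2% lower. Its median log2 fold change was 0.24, with quartiles of -0.23 and 0.66 and a range of -4.05 to 1.63, beside a median of 0.07 over all genes. Other noncoding RNAs had 398 higher and 240 lower of 1245 tested, with a median of 0.32, and protein-coding genes had 1716 higher and 1775 lower of 4974, with a median of 0.02. Changes of at least 1 on the log2 scale were fewer than the background: 7 RNAs rose by that much, where 18.0 percent of all genes did, and 8 fell, where 18.7 percent did. The control has 1 library, and its spread was taken to equal that of the replicated groups. Scaling by library totals alone left 18 higher and 17 lower with a median of 0.12, and without the Slr1p replicate 2 library 19 were higher.

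Of the 5 RNAs with gene symbols, prl3 was called against IgG without correction for length and GC content, and prl32, rse1 and nc-tco1 with it. The prl names were given in fission yeast to polyadenylated RNAs without a long open reading frame. prl53 had 5357 and 5946 CPM in the Slr1p libraries, against 4652 CPM in the IgG library and 5437 and 5978 CPM in input. Both Slr1p values lay above IgG, and 1 of them lay below both input values and 1 between them; the log2 fold change over IgG was 0.28 (SE 0.28, edgeR adjusted p = 0.395). prl3 had 306 and 379 CPM in the Slr1p libraries, against 217 CPM in IgG and 710.5 and 592.5 CPM in input. It rose by 0.65 over IgG (SE 0.19, edgeR adjusted p = 0.00752), a call lost without the Slr1p replicate 2 library (0.48). Corrected for the trend of all genes over length and GC content, prl3 had a value of -0.09. This trend was fitted over all annotated genes tested, most of them protein-coding. Their fold changes over IgG fell more steeply with length than those of the 81 RNAs, as given below. Whether the trend fits noncoding RNAs was not tested, so corrected values and turns of sign are given as a description. Both Slr1p values of prl3 lay between IgG and input.
prl32 had 64.7 and 65.3 CPM with Slr1p, against 50.7 CPM with IgG and 124 and 81.0 CPM in input, for a log2 fold change over IgG of 0.36 (edgeR adjusted p = 0.136). rse1 had 108 and 112 CPM with Slr1p, against 121 CPM with IgG and 78.8 and 78.8 CPM in input, for -0.13 (edgeR adjusted p = 0.421). nc-tco1, named for the coding gene it overlaps, had 32.6 and 31.1 CPM with Slr1p, against 33.5 CPM with IgG and 38.3 and 37.5 CPM in input, for -0.07 (edgeR adjusted p = 0.696). These 3 were not called by this test. Corrected for length and GC content all 3 passed it, prl32 in the opposite direction at -0.47, rse1 at 1.06 and nc-tco1 at 0.64 (edgeR adjusted p = 0.0488 for prl32, 1.86e-05 for rse1 and 0.00258 for nc-tco1). prl53 stood at 0.31 after this correction and did not pass.

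Per kilobase, the 10 RNAs highest in input were prl53 (3082 CPM), prl3 (841), prl32 (238), SPNCRNA.112 (235), SPNCRNA.133 (90.4), SPNCRNA.1351 (86.9), SPNCRNA.863 (84.9), SPNCRNA.1236 (78.9), SPNCRNA.1674 (51.9) and SPNCRNA.1296 (49.1). Neighbours in this order did not always differ beyond their replicate spread: prl32 and SPNCRNA.112 overlapped in input, as did SPNCRNA.133, SPNCRNA.1351, SPNCRNA.863 and SPNCRNA.1236. Against IgG, 5 of the 10 were called higher and none lower, where 34.0 percent and 32.3 percent of all genes were. Besides prl3 and SPNCRNA.1351, these were SPNCRNA.1236 (0.66), SPNCRNA.1674 (0.66) and SPNCRNA.1296 (0.70). All 3 are under 1000 bases long, and after correction for length and GC content their values were -0.26, -0.23 and -0.14. With prl3, 4 of these 5 thus turned below 0, and none of these 4 passed the test after the correction.

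**Figure D2:**
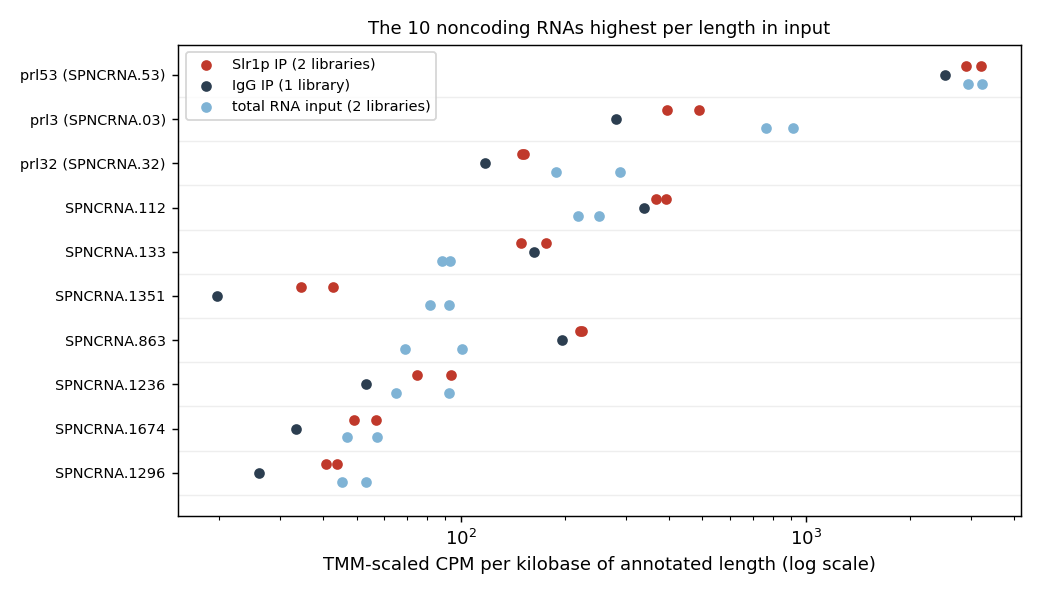
TMM-scaled CPM per kilobase of annotated length (log scale) of the 10 RNAs highest per length in input, with 1 point per library. prl53 lies at 3082 CPM per kilobase in input, above prl3 at 841 and SPNCRNA.1296, the lowest of the 10, at 49.1; the Slr1p points of SPNCRNA.112 and SPNCRNA.863 lie above their input points.

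The largest rise over IgG was that of SPNCRNA.1487, antisense to mag2, a DNA glycosylase gene. It had 20.6 and 23.1 CPM in the Slr1p libraries, against 7.04 CPM in IgG and 28.3 and 21.9 CPM in input. Both Slr1p values lay far above IgG and beside those of input, and the log2 fold change over IgG was 1.63 (SE 0.23, edgeR adjusted p = 1.5e-05). SPNCRNA.570 followed, with 77.3 and 96.4 CPM with Slr1p, against 33.3 CPM with IgG and 25.3 and 34.5 CPM in input. Here the Slr1p values lay above both IgG and input, with a rise of 1.38 over IgG (SE 0.21, edgeR adjusted p = 2.65e-05). Its same-strand overlap with SPBC30B4.09, over 60.5% of its length, was with a gene listed at 0 in every library.
SPNCRNA.1307 had 24.2 and 27.8 CPM with Slr1p, against 10.1 CPM with IgG and 28.7 and 25.7 CPM in input, a rise of 1.36 over IgG. SPNCRNA.1594 had 14.9 and 13.1 CPM with Slr1p, against 5.52 CPM with IgG and 31.6 and 31.3 CPM in input, a rise of 1.34. It lies opposite rpl1801, whose own mRNA had a log2 fold change over IgG of 1.84. That mRNA averaged 2907 CPM with Slr1p, against 811 CPM with IgG and 4904 CPM in input. Whether reads of it were counted for SPNCRNA.1594 was not tested. SPNCRNA.1533 rose by 1.24, SPNCRNA.1358 by 1.16 and SPNCRNA.953 by 1.11. SPNCRNA.1351, SPNCRNA.1461 and SPNCRNA.1096 rose by 0.98, 0.95 and 0.95. Of these 10, SPNCRNA.570, SPNCRNA.1358 and SPNCRNA.1096 were above input in both Slr1p libraries by a called amount. SPNCRNA.1096 had 120 and 129 CPM with Slr1p, against 64.3 CPM with IgG and 59.5 and 67.5 CPM in input, and lies antisense to SPCC1884.01. For SPNCRNA.1461 the rise did not pass the test after correction for length and GC content (0.11).
The remaining 23 called rises lay between 0.35 (SPNCRNA.1643) and 0.95 (SPNCRNA.728). Of the 8 RNAs named above opposite genes of meiosis or the spore wall, 3 were among them. SPNCRNA.1602, opposite hop1, had 64.4 and 61.5 CPM with Slr1p, against 37.5 CPM with IgG and 104 and 74.8 CPM in input, a rise of 0.75 over IgG. SPNCRNA.904, opposite dmc1, had 45.3 and 56.3 CPM with Slr1p, against 37.0 CPM with IgG and 33.3 and 40.7 CPM in input, a rise of 0.46 that did not pass after correction for length and GC content (0.42). SPNCRNA.815, opposite mug68, rose by 0.54. SPNCRNA.1644, opposite spo4, had 41.5 and 47.6 CPM with Slr1p, against 39.7 CPM with IgG, which was not called (0.17) but passed after that correction (0.77). Of the remaining 4, SPNCRNA.1351 is among the 10 largest rises, and SPNCRNA.880 (-0.13) and SPNCRNA.1476 (0.07) were not called. SPNCRNA.1044, opposite mcp3, was called lower at -0.64 and stood at 0.30 after the correction.

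The falls were fewer and reached further. SPNCRNA.135 had 6.97 and 7.15 CPM in the Slr1p libraries, against 117 CPM in IgG and 33.2 and 39.5 CPM in input. The log2 fold change over IgG was -4.05 (SE 0.16, edgeR adjusted p = 7.54e-12), and the IgG value was itself above input. SPNCRNA.742 had 2.91 and 2.34 CPM with Slr1p, against 31.2 CPM with IgG and 55.0 and 70.7 CPM in input. It was low against both, with -3.57 over IgG (SE 0.20, edgeR adjusted p = 4.95e-10). At its end it overlaps met26, the methionine synthase gene, on the same strand over 3.03% of its length, and met26 averaged 2399 CPM with Slr1p, against 3780.4 CPM with IgG and 3002 CPM in input.
SPNCRNA.1597, antisense to the lysine biosynthesis gene lys9, had 48.3 and 51.4 CPM with Slr1p, against 185 CPM with IgG and 33.5 and 28.3 CPM in input. SPNCRNA.862 had 39.3 and 45.1 CPM with Slr1p, against 102 CPM with IgG and 32.7 and 28.8 CPM in input. SPNCRNA.1263 had 47.9 and 49.2 CPM with Slr1p, against 108 CPM with IgG and 24.0 and 26.9 CPM in input. In all 3 the Slr1p values lay between IgG and input, with log2 fold changes over IgG of -1.89 for SPNCRNA.1597, -1.27 for SPNCRNA.862 and -1.16 for SPNCRNA.1263. SPNCRNA.762 (-1.43), SPNCRNA.964 (-1.33), SPNCRNA.1297 (-1.06), SPNCRNA.1124 (-0.96) and SPNCRNA.1469 (-0.81) were lower with Slr1p than in both IgG and input. Correction for length and GC content turned SPNCRNA.1263, the longest RNA of the set, to 0.64 and SPNCRNA.1469 to 0.24. The other 8 called falls lay between -0.73 (SPNCRNA.1626) and -0.40 (SPNCRNA.857), and both of these ends turned with the correction, SPNCRNA.1626 to 0.96 and SPNCRNA.857 to 0.03. Of all 33 called rises, 25 passed in the same direction after the correction and 0 passed in the opposite one. Of all 18 called falls, 9 passed in the same direction after the correction and 4 passed in the opposite one. The 30 RNAs that were not called lay between -0.35 (SPNCRNA.954) and 0.44 (SPNCRNA.1447), and 16 of them passed after the correction, 12 as higher and 4 as lower. No share of all genes after the correction is given here, so the counts after it are a description.

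**Figure D3:**
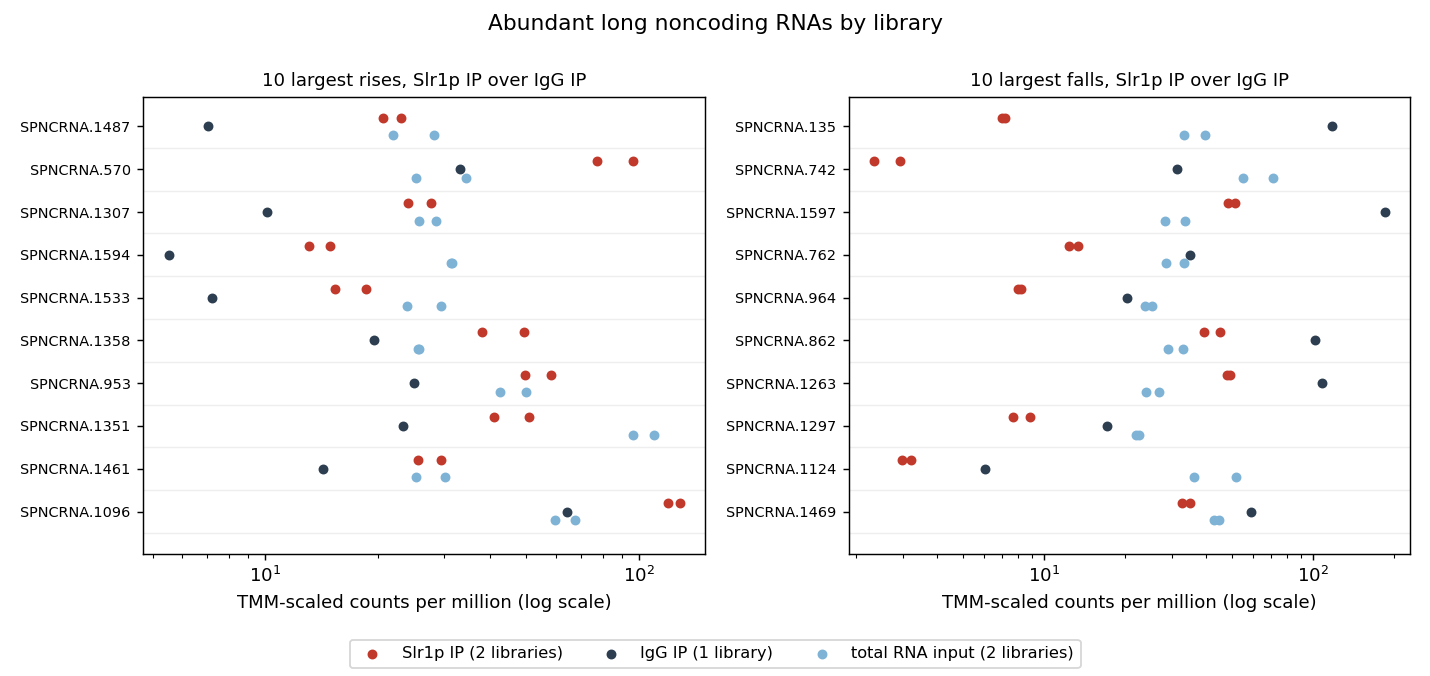
TMM-scaled CPM (log scale) in each library for the 10 RNAs with the largest called rises (left) and the 10 with the largest called falls (right), Slr1p over IgG; each point is 1 library. SPNCRNA.1487 has Slr1p points at 20.6 and 23.1 CPM, against 7.04 CPM in IgG, and SPNCRNA.135 has Slr1p points at 6.97 and 7.15 CPM, against 117 CPM in IgG.

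Position relative to coding genes went with different counts, and differences between these classes were not tested. Of the 47 RNAs with antisense overlap only, 22 were higher and 9 lower over IgG, with a median log2 fold change of 0.35. The 12 without overlap had 6 higher and 2 lower (median 0.40), and the 11 with overlap on both strands had 4 higher and 3 lower (median 0.07). The 11 with same-strand overlap only had 1 higher and 4 lower (median 0.00). Among the other noncoding RNAs, the antisense class had 233 higher and 106 lower of 679 (median 0.35) and the same-strand class 12 higher and 30 lower of 81 (median -0.26). Leaving out the RNAs with any same-strand overlap, an alternative chosen after seeing the data, left 59 RNAs with 28 higher and 11 lower. These counts stand beside the same 34.0 percent and 32.3 percent of all genes.
Of the 5 RNAs inside host genes, 3 had a fold change over IgG near 0 beside a host that was called lower. SPNCRNA.133 had 198 and 233 CPM with Slr1p, against 215 CPM with IgG, for a log2 fold change of 0.00. Its host fhn1, an eisosome protein gene, had a fold change of -4.55. SPNCRNA.112 had 0.16 and its host rhs1 -2.43, and SPNCRNA.586 had 0.27 and its host ptc2, a protein phosphatase gene, -2.66. After correction for length and GC content, SPNCRNA.133 stood at -0.53 beside -3.75 for fhn1, SPNCRNA.112 at -0.73 beside -2.10 for rhs1 and SPNCRNA.586 at -0.35 beside -1.83 for ptc2, so that each had the sign of its host. prl32 and SPCC417.16 were both above IgG (0.36 and 0.22) before the correction and both below it (-0.47 and -0.63) after it, and SPBC365.16, the host of SPNCRNA.135, has no value here. SPNCRNA.1544, antisense to the splicing factor gene syf2, lay on the other side of IgG from its opposite mRNA. It had 45.0 and 44.8 CPM with Slr1p, against 24.4 CPM with IgG, a rise of 0.88, while syf2 averaged 1.83 CPM with Slr1p, against 15.4 CPM with IgG. Corrected for length and GC content, the values were 0.71 for SPNCRNA.1544 and -3.63 for syf2. This locus was chosen after its values were seen. Across the 55 RNAs opposite a tested coding gene, the fold change over IgG and that of the mRNA opposite had a Pearson's r of -0.02 and a Spearman's rho of 0.05. These points share libraries and are not independent.

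**Figure D4:**
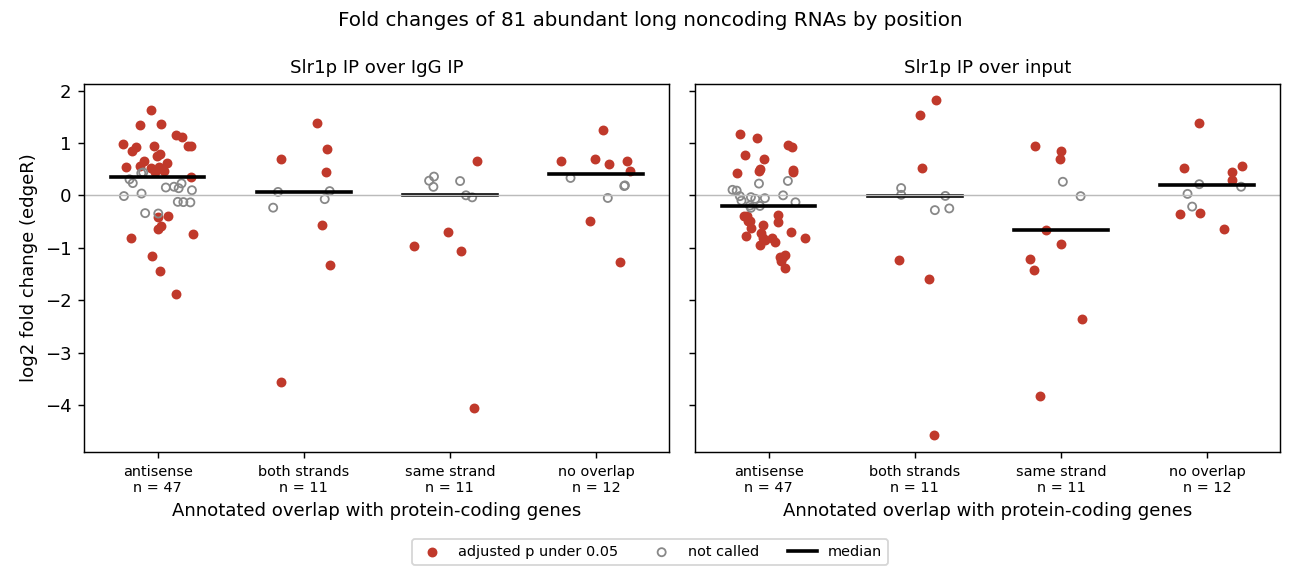
Log2 fold changes of the 81 RNAs by their annotated overlap with protein-coding genes, Slr1p over IgG on the left and Slr1p over input on the right; filled points were called by edgeR and black bars are medians. Over IgG the medians are 0.35 for antisense, 0.07 for both strands, 0.00 for same strand and 0.40 for no overlap.

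Median fold changes over IgG were lower in bins of longer RNAs. The 10 RNAs up to 1000 bases had a median log2 fold change of 0.66, with 7 (70.0%) higher and 1 (10.0%) lower. The 33 between 1000 and 2000 bases had 0.28, the 21 between 2000 and 3000 had 0.14, and the 17 above 3000 bases had -0.13, with 5 (29.4%) higher and 7 (41.2%) lower. Protein-coding genes ran through a wider span over the same bins, with medians of 1.03, 0.33, -0.52 and -1.30. Other noncoding RNAs had 0.57, 0.41, -0.01 and -0.32. Up to 1000 bases, 72.2% of protein-coding genes were higher and 10.6% lower, and of other noncoding RNAs 35.2% and 16.9%. Above 3000 bases, these shares were 3.24% and 86.9% for protein-coding genes and 12.5% and 37.5% for other noncoding RNAs. Against log2 length, Spearman's rho was -0.33 over the 81 RNAs and -0.67 over 4974 protein-coding genes, described across genes that share libraries. Removing the trend over length and GC content gave 41 higher and 13 lower, with a median of 0.46. The shares and median of all genes after this removal are not given here, so these counts are a description.

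**Figure D5:**
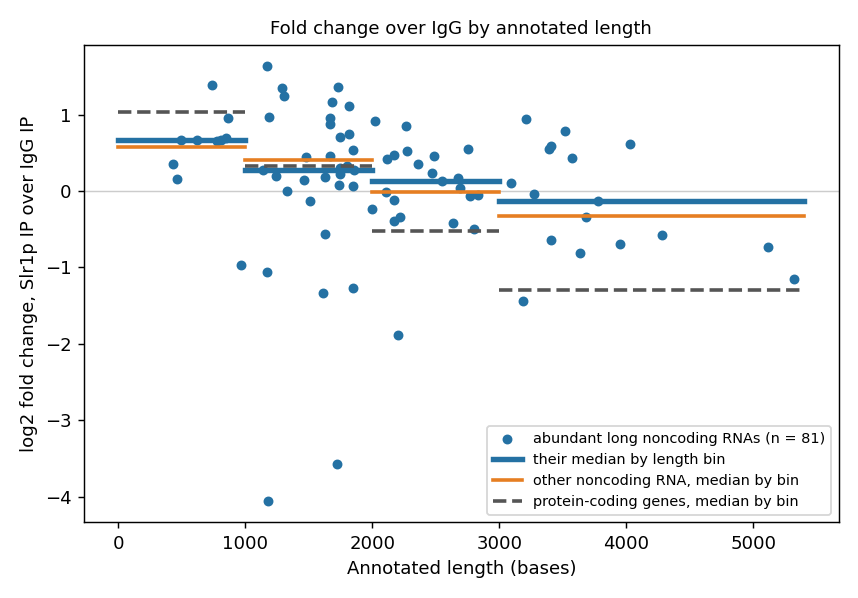
Log2 fold change of Slr1p over IgG against annotated length for the 81 RNAs (points), with medians per length bin for these RNAs, for other noncoding RNAs and for protein-coding genes. The medians of the 81 run through 0.66, 0.28, 0.14 and -0.13, and those of protein-coding genes through 1.03, 0.33, -0.52 and -1.30.

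Slr1p over input asks how the precipitated RNA differed from the RNA the cells held. By the same test 22 of the 81 RNAs were higher and 34 were lower, where 35.0 percent and 34.2 percent of all genes were, and the median log2 fold change was -0.13, beside 0.03 over all genes. Since input levels chose the RNAs, nothing is read from these counts, and without the Slr1p replicate 2 library 14 were higher. Other noncoding RNAs had 535 higher and 184 lower, with a median of 0.43. A change of at least 1 was called upward in 5 RNAs (12.6 percent of all genes) and downward in 12 (16.5 percent). Slr1p and IgG were both set against the same input pair; over input, IgG had 17 higher and 36 lower (34.1 percent and 36.5 percent of all genes), with a median of -0.34.

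The highest value over input was that of SPNCRNA.688, antisense to vps4, an endosomal ATPase gene. It had 90.2 and 106 CPM with Slr1p, against 71.6 CPM with IgG and 28.0 and 27.7 CPM in input, a log2 fold change over input of 1.81. Both precipitates thus lay above input, and the fold change over IgG was 0.45, a call lost without either Slr1p library (0.53 without replicate 1 and 0.32 without replicate 2). SPNCRNA.863 had 359 and 366 CPM with Slr1p, against 320.3 CPM with IgG and 112 and 164 CPM in input. Its fold change over input was 1.39 and over IgG 0.18, which was not called. SPNCRNA.863 and SPNCRNA.862 overlap each other on opposite strands, and SPNCRNA.862 was highest in IgG. SPNCRNA.570 had 1.54 over input, SPNCRNA.954 had 1.17 and SPNCRNA.1643 had 1.09. The next values were 0.97 for SPNCRNA.1096, 0.95 for SPNCRNA.867, 0.93 for SPNCRNA.1263, 0.85 for SPNCRNA.133 and 0.77 for SPNCRNA.1358.
Values far below input were held by SPNCRNA.742 (-4.58), SPNCRNA.1124 (-3.83) and SPNCRNA.135 (-2.36). SPNCRNA.1124 had 2.97 and 3.20 CPM with Slr1p, against 6.03 CPM with IgG and 51.8 and 36.0 CPM in input, so that it was low in both precipitates. It overlaps knh3 on the same strand over 3.74% of its length, and knh3 averaged 1247 CPM with Slr1p, against 1032 CPM with IgG and 1871 CPM in input. Further values were -1.59 for SPNCRNA.964, -1.43 for SPNCRNA.1297, -1.38 for SPNCRNA.1518, -1.26 for SPNCRNA.762, -1.24 for SPNCRNA.1018 and -1.21 for SPNCRNA.1115. SPNCRNA.1351 and SPNCRNA.1594 both had -1.17 while being higher with Slr1p than with IgG.

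The 3 RNAs with a pyrimidine run at the annotated 5′ end did not share 1 pattern. prl3 was above IgG and below input, as given above. SPNCRNA.763, antisense to sgt1, had 27.3 and 29.3 CPM with Slr1p, against 20.6 CPM with IgG and 55.8 and 46.2 CPM in input, with 0.45 over IgG (edgeR adjusted p = 0.0321) and -0.85 over input. SPNCRNA.1599 had 34.0 and 31.6 CPM with Slr1p, against 32.0 CPM with IgG and 39.7 and 32.3 CPM in input, and was called in neither comparison. Corrected for length and GC content, SPNCRNA.1599 passed as higher over IgG (0.76), while prl3 did not pass (-0.09).

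Replicates of Slr1p were closer than those of input. The median absolute log2 ratio of replicate 2 to replicate 1 over the 81 RNAs was 0.111 for Slr1p, with a maximum of 0.447, and 0.228 for input, with a maximum of 0.668. The input pair differed by over 0.5 in 5 RNAs, prl32, SPNCRNA.863, SPNCRNA.1115, SPNCRNA.1124 and SPNCRNA.1236, and the Slr1p pair in none.

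The mRNAs of factors that act on noncoding RNA were also followed, as a list of 41 genes of the exosome, its cofactors, mRNA decay and RNA silencing. All 41 were tested. Over IgG 14 (34.1%) were higher and 17 (41.5%) lower, where 34.0 percent and 32.3 percent of all genes were, with a median log2 fold change of -0.08. Corrected for length and GC content, 9 were higher and 7 lower, with a median of 0.14, for which no share of all genes is given. Over input 24 (58.5%) were higher and 9 (22.0%) lower, where 35.0 percent and 34.2 percent of all genes were, with a median of 0.43. IgG over input was alike on this list, with 23 (56.1%) higher, 7 (17.1%) lower and a median of 0.49. Over all genes, 34.1 percent were higher and 36.5 percent lower with IgG over input. mmi1, which encodes the protein that marks meiotic transcripts for the exosome, averaged 22.1 CPM with Slr1p, against 99.2 CPM with IgG and 36.3 CPM in input. dcr1, the Dicer gene, averaged 12.0 CPM with Slr1p, against 84.2 CPM with IgG and 24.5 CPM in input, and both mRNAs fell over IgG, with log2 fold changes of -2.17 for mmi1 and -2.81 for dcr1. erh1, encoding the partner of Mmi1, rose by 1.41 over IgG and lsm1, encoding a decay factor of the cytoplasm, by 1.15. After correction for length and GC content the values were -1.48 for mmi1, -1.04 for dcr1, 0.92 for erh1 and 0.39 for lsm1. rrp6, encoding an exonuclease of the nuclear exosome, had a log2 fold change of -0.85 over IgG, which did not pass after that correction (-0.38), and of 0.91 over input.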

How the data were processed

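Each deposited table held the raw counts of 1 library over the same 6727 genes. The submitters' processing notes name HTSeq 0.6.1p2, STAR 2.6.0c, Trim Galore, FastQC 0.11.5 and bcl2fastq 2.20 among the tools of the authors. Per the labels, libraries were directional and read from both ends for 50 bases. The build, the gene models, the strand option and the handling of multiply mapped or shared reads are not stated in the sources used, so no coordinates are printed.

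Groups came from the sample titles. The quasi-likelihood test of edgeR 4.0.16 (R 4.3.3) was run on the counts with TMM scaling, the default expression filter by group (351 genes removed, 6376 tested), 1 mean per group over all 5 libraries and 2 residual degrees of freedom. The procedure was also run on counts simulated from a shared mean profile and a common dispersion, with changes set in Slr1p only. These held no length trend and no difference of IgG from input, so they cannot show how reliable the calls over IgG are. Benjamini-Hochberg adjustment covered all genes tested, and genes with an adjusted p under 0.05 were called. All 81 RNAs passed the filter. Replicates were not copies of 1 library: chi-square per degree of freedom was 44.4 for Slr1p and 194 for input. Alternatives were DESeq2 1.42.0, library totals, no filter, a replicate block, each Slr1p and input library left out in turn, other floors, a minimum change, and removal of the trend over length and GC content.

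Gene symbols, lengths, overlaps and sequences were taken from RefSeq's annotation of ASM294v3, matched by identifier (all 81 RNAs, 1428 of 1567 noncoding identifiers). RNAs named with values were the 10 highest per kilobase in input, the 10 largest called rises and falls in each comparison, those with a symbol, and those at the floor. The RNAs and lists were chosen with earlier results of these data known.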

Additional observations from a re-analysis of the deposited data

How the results depend on the processing

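For Slr1p over IgG, the median log2 fold change was 0.12 with library totals alone, 0.21 with DESeq2 and 0.46 after correction for length and GC content, and library totals left 18 RNAs higher. Leaving out 1 Slr1p or input library gave 19 to 40 higher, 12 to 21 lower and medians of 0.21 to 0.24. A floor of 10 CPM took in 206 RNAs with 84 higher, 41 lower and a median of 0.21, and a floor of 50 CPM took in 16 with 4 higher, 4 lower and a median of 0.17. The 12 RNAs overlapping no coding gene had 6 higher, 2 lower and a median of 0.40, those with no same-strand overlap 11 lower and a median of 0.35, and a minimum change of 1 left 7 higher and 8 lower. The correction for length and GC content turned the direction of prl3 (-0.090), SPNCRNA.1044 (0.30), SPNCRNA.1115 (0.59), SPNCRNA.1236 (-0.26), SPNCRNA.1263 (0.64), SPNCRNA.1296 (-0.14), SPNCRNA.1443 (0.10), SPNCRNA.1469 (0.24), SPNCRNA.1600 (-0.21), SPNCRNA.1626 (0.96), SPNCRNA.1658 (0.84), SPNCRNA.1674 (-0.23), SPNCRNA.857 (0.033) and SPNCRNA.979 (0.23). Of the 51 calls, 34 were kept and these 14 changed sign after this correction. Only 4 of the 14 passed the test in the new direction, each a called fall before it. With library totals alone 35 were kept, and 46 with DESeq2.

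For Slr1p over input, the median was -0.12 with library totals alone, -0.15 with DESeq2, -0.076 after the correction and -0.082 with the floor set on TMM-scaled CPM. Leaving out 1 Slr1p or input library gave medians of -0.26 to -0.014, 14 to 27 higher and 25 to 43 lower. A floor of 10 CPM gave 71 higher, 65 lower and a median of 0.032, a floor of 50 CPM 5 higher, 9 lower and -0.45, and the RNAs overlapping no coding gene 5 higher, 3 lower and 0.19. A minimum change of 1 left 5 higher and 12 lower. The difference between replicates in Slr1p had an r of -0.05 with that in input over 6376 genes. This value cannot show whether libraries of the same replicate number shared a culture. A replicate block gave 21 higher, 32 lower and a median of -0.13. No paired analysis was possible for Slr1p over IgG because IgG has 1 library.

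Removing the filter on low counts changed none of the 51 or 56 calls. The causes of these shifts were not tested. The IgG library, with a median of 429 counts per RNA, limits the precision of every value against IgG.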
